A study of Mus musculus with 24 samples.

Results

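Transcripts of 36 marker genes of infiltrating leukocytes were followed in microglial RNA from the spinal cord of mice with experimental autoimmune encephalomyelitis (EAE). The genes are a list of 10 T cell, 7 B cell, 7 neutrophil, 6 monocyte and 6 dendritic cell markers, given by name. All 36 were found among the 39017 gene identifiers of the deposited count table, and 22 of them passed the low-count filter that left 16535 genes for testing. The study asked what loss of Kdm6a, an X-linked gene for a demethylase of histone H3 lysine 27, does in microglia in this model of multiple sclerosis. The libraries came from female Kdm6a cKO, female Wildtype, male Kdm6a cKO and male Wildtype mice, 6 libraries in each of the 4 groups. In all 4 groups, wildtype included, the mice had EAE and carried Tmem119-Cre and RiboTag. The labels do not say which libraries came from separate animals, so the p-values measure the spread between libraries, part of which may be technical. Library numbers within a group name the libraries, in an order that partly follows the number in the library titles. cKO is the labels' name for the conditional deletion, and age and time after induction were not given in the sources used here. RiboTag is an epitope-tagged ribosomal protein switched on by Cre, used to collect ribosome-bound RNA from one cell type. Tmem119-Cre acts in cells that make or have made Tmem119, a microglial membrane protein. The labels' extraction protocol names no pull-down step, and leukocyte RNA from other cells cannot be told apart here from expression in microglia.

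In EAE, T cells primed against myelin enter the spinal cord and are followed by monocytes, neutrophils, dendritic cells and B cells. T cells are recognised by the CD3 chains and their coreceptors, B cells by the antigen receptor, neutrophils by granule and S100 proteins, monocytes by Ly6C, and dendritic cells by antigen-presentation and migration genes. Several of these genes are not restricted to 1 leukocyte class: Vim, Fscn1, Arg1 and S100a4 are made by other cells too.

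The 24 libraries held 27110133 to 40554736 counts each, and the 36 markers together took 0.047% to 0.166% of a library. The deleted gene was checked first: Kdm6a had a log2 change, cKO over wildtype, of -0.85 ± 0.25 (SE, edgeR quasi-likelihood adjusted p = 0.0313) in females and -1.36 ± 0.26 (adjusted p = 0.016) in males. Tmem119 had 189.7 to 291 CPM (counts scaled by each library's normalised total) in female cKO and 272 to 433 CPM in female wildtype libraries, and Cx3cr1, another microglial gene, had 670 CPM or more in every library. 4 libraries stood apart: female wildtype 2 and 3 held all 58 counts of the Y-linked Ddx3y found in female wildtype, female wildtype 5 had a quality weight of 0.162 from limma, and male cKO 3 held 16 counts of Xist. Even numbers made up 90.6% of the 235 marker counts between 1 and 10, against 71.8% of such counts over all genes, and the cause was not tested.

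Many of the leukocyte markers had few counts. Of the 36, between 22 and 34 had at least 1 count in a library (median 26.5), and between 14 and 26 had at least 10 counts (median 18.5). Female cKO libraries held 22 to 26 detected markers (median 24), against 26 to 33 (median 30) in female wildtype. Male cKO libraries held 23 to 31 (median 26.5), against 26 to 34 (median 27) in male wildtype. These ranges were unchanged in all 4 groups when every library was thinned to the smallest total, and the male wildtype median became 26.5. The groups met at 26 in females and overlapped in males.

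Per kilobase of exon, 3 genes stood far above the rest: Fscn1 at 124.5 CPM per kilobase averaged over all libraries, Ighm at 123.8 and Vim at 48.4. Igkc followed at 13.3 and Cd79b at 5.54, and every other marker was at 2.72 CPM per kilobase or less. At the low end, Ly6g, a surface marker of mouse neutrophils, had 0 counts in all 24 libraries, which allows up to 0.074 to 0.111 CPM per library at a limit of 3 counts. Retnlg, another neutrophil gene, had 2 counts in 1 male cKO library. The limit covers counting error only.

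**Figure D1:**
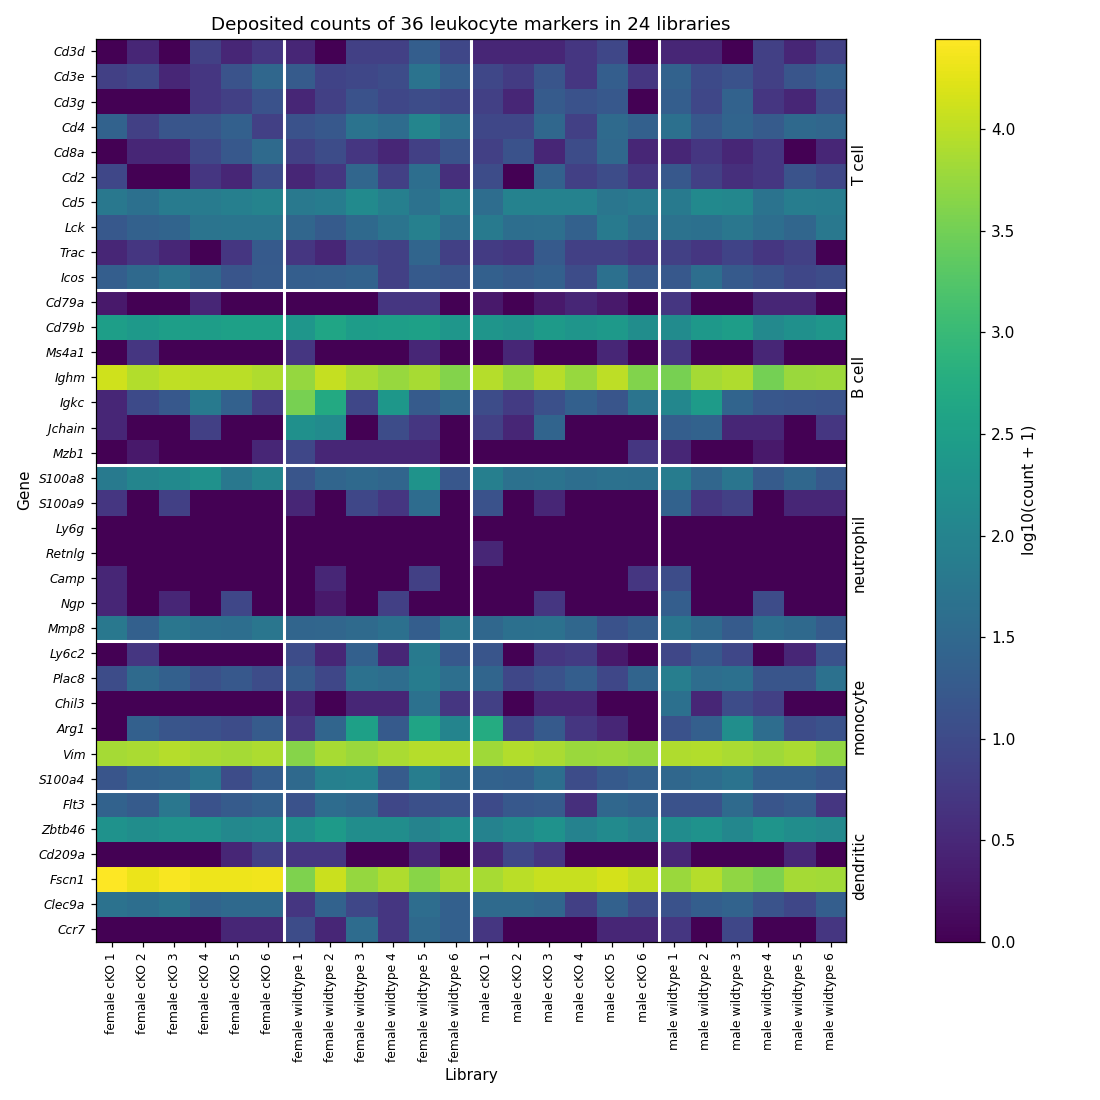
Deposited counts of the 36 markers (rows, by cell class) in the 24 libraries (columns, 6 per group), as log10(count + 1) on the colour scale. Ighm, Vim and Fscn1 are bright in every library, Ly6g is at 0 throughout, and Fscn1 is brightest in the 6 female cKO libraries.

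In females, 4 of the 22 tested markers passed the threshold of an adjusted p under 0.05. Fscn1 and Ighm were higher in cKO, and Igkc and Ly6c2 were lower. Over all 16535 genes, 7.74% passed in this comparison, 3.32% higher and 4.41% lower. At an unadjusted p under 0.05 there were 10 markers, 5 in each direction, of 22, beside 19.2% of all genes. The median log2 change was 0.00 over the 22 markers and -0.02 over all genes tested. In males, 0 of 22 passed with edgeR, against 0.187% of all genes. At an unadjusted p under 0.05 there were 3 markers in males, beside 4.86% of all genes, and DESeq2 and limma with quality weights called 1 each, Fscn1. With the number in the library titles, whose meaning the labels do not give, as a random effect in limma, Fscn1 and S100a8 were called in females, while Ighm (adjusted p = 0.105), Igkc (adjusted p = 0.508) and Ly6c2 (adjusted p = 0.0627) were not. Averaged over the sexes, the same 4 genes passed in the same directions, beside 6.54% of all genes (2.76% higher and 3.78% lower), and with the title number as a random effect 1 of them, Fscn1, stayed called. For the difference between the sexes in the cKO effect, 0 of 22 markers and 0.411% of all genes passed with edgeR. There, 4 markers and 7.11% of all genes had an unadjusted p under 0.05, DESeq2 called 0, and limma with quality weights called Fscn1.

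**Figure D2:**
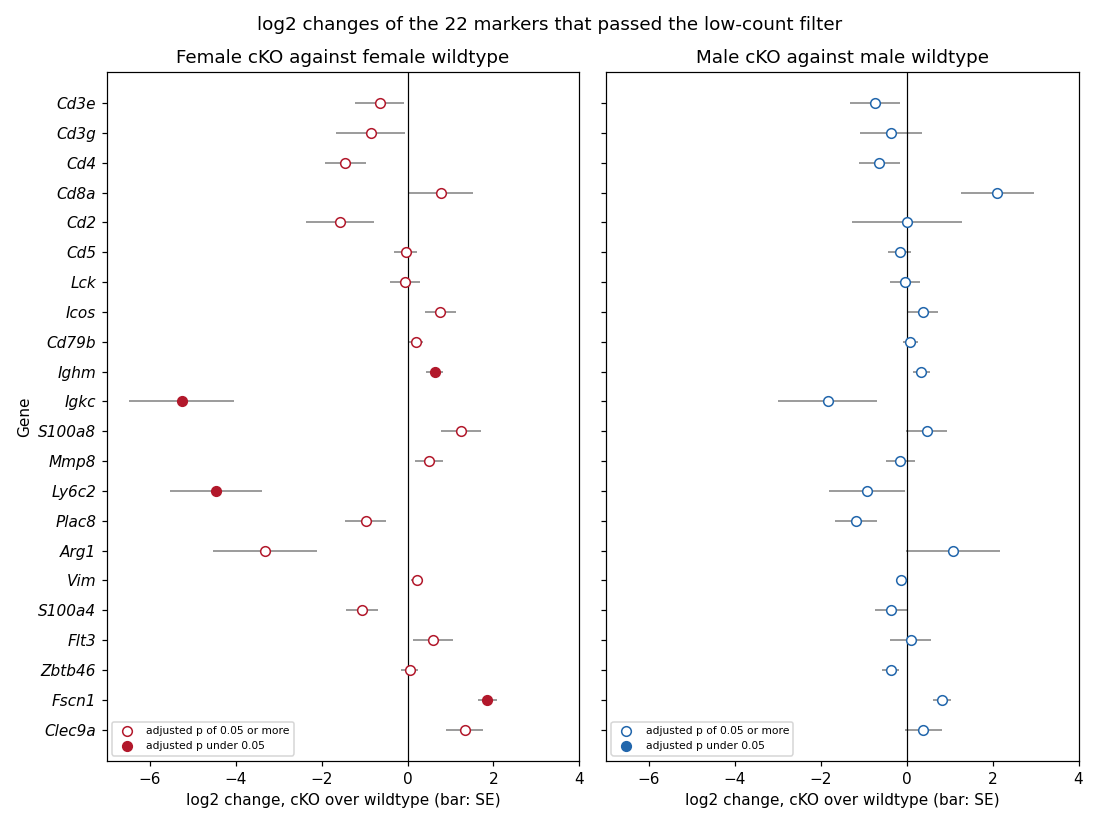
log2 change of cKO over wildtype (horizontal axis, bar: standard error) for the 22 tested markers in females (left) and males (right), filled where the adjusted p was under 0.05. The filled points are Fscn1 and Ighm to the right of 0, and Igkc and Ly6c2 to the left, all in females.

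The clearest change was that of 1 gene on the dendritic cell list, Fscn1, and not of the list as a whole. Fscn1 encodes fascin, the actin-bundling protein of mature dendritic cell protrusions (ENSMUSG00000029581, chr5:142960343-142973185, plus strand, mm10). Its level was 654, 716 and 811 CPM at the lowest, median and highest library of female cKO, against 119.9, 186 and 325 CPM in female wildtype. All 6 female cKO libraries lay above all 6 wildtype libraries, which was the case for 1 of the 36 markers and for 4.46% of all genes tested in either direction, 2.36% with cKO higher. In males, 0 of 36 markers and 0.575% of genes had groups that did not overlap. The log2 change of Fscn1 in females was 1.86 ± 0.21 (adjusted p = 1.33e-06), and it lay between 1.75 and 2.04 with any 1 library left out. In males, Fscn1 had 211, 379 and 448 CPM in cKO and 140.6, 218 and 259 CPM in wildtype. Male cKO 1, at 211 CPM, lay among the wildtype libraries, and the other 5 lay above them. The log2 change in males was 0.83 ± 0.21 and did not pass (adjusted p = 0.137). It was 0.94 and passed (adjusted p = 0.0497) without male cKO 1, and 0.85 (adjusted p = 0.034) without the 4 libraries that stood apart. Among cKO mice, Fscn1 was higher in females than in males by 1.0 ± 0.21 on the log2 scale (adjusted p = 0.00777), the one marker called in a comparison with 1.98% of genes called, of which the genes higher in females were 0.883% of all tested. Both sexes of cKO share title numbers, and with that number as a random effect in limma the difference was 1.03 ± 0.20 (adjusted p = 0.00356), or 0.99 ± 0.15 (adjusted p = 0.00124) as a block in edgeR on the cKO libraries alone. Between female and male wildtype mice, 0 of 22 markers passed with edgeR, with 0.0363% of all genes called, and 3 markers and 3.14% of all genes had an unadjusted p under 0.05. The difference between the sexes in the cKO effect on Fscn1 was 1.03 ± 0.30 with an adjusted p of 0.178 by edgeR. With limma quality weights it was also 1.03, with an adjusted p of 0.0362.

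The 300 bases around the annotated start of Fscn1 (250 before to 50 after, RefSeq on GRCm38.p6, chr5:142960105-142960404, plus strand) are shown because Fscn1 was the marker with the clearest difference, in a study of a chromatin enzyme. The letters TATAAA, searched on both strands, and each CG pair are in capitals.
Fscn1: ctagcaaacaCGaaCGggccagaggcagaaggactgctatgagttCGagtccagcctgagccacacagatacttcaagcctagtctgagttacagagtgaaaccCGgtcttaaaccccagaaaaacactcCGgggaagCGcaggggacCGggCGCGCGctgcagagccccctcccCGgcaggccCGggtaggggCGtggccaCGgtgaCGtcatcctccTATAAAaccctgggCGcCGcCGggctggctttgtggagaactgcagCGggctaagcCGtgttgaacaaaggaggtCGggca
The window holds 21 CG pairs, against a median of 7 over 32851 promoters, of which 75.2% have fewer. TATAAA occurs once in it and is found on either strand in 13.6% of those promoters. A match describes the letters and shows no factor at work.

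In edgeR with all libraries, no other dendritic marker passed the threshold, and Clec9a missed it narrowly. Zbtb46, a transcription factor of conventional dendritic cells, had 4.08, 4.92 and 5.43 CPM in female cKO and 2.62, 4.41 and 6.98 CPM in female wildtype. In males it had 2.76, 3.86 and 5.34 CPM in cKO and 3.59, 4.82 and 7.51 CPM in wildtype. Both pairs of groups overlapped, with log2 changes of 0.05 ± 0.20 (adjusted p = 0.929) in females and -0.37 ± 0.20 (adjusted p = 1) in males. Clec9a, a receptor for dead cells on cross-presenting dendritic cells, is named here after its values were seen. It had 0.797, 1.22 and 1.42 CPM in female cKO and 0.122, 0.425 and 1.02 CPM in female wildtype, and female wildtype 5 was the wildtype library inside the cKO range. Its log2 change of 1.33 ± 0.42 missed the threshold (adjusted p = 0.0519). It passed without female wildtype 5 (1.71, adjusted p = 0.0112), without female wildtype 2 (1.43, adjusted p = 0.0457) and without male cKO 4 (1.32, adjusted p = 0.0418). With all libraries it passed with DESeq2 (adjusted p = 0.0217), limma quality weights (0.00525), a filter of 1 CPM in 6 libraries (0.0424), counts divided by 2 (0.0339) and a term for libraries 1 to 3 against 4 to 6 (0.0471), and it also passed with libraries 1 to 3 alone (0.0429) and without the 4 libraries that stood apart (0.0337). Clec9a shares 184 exonic bases with Clec1b on the same strand, so its counts are uncertain. Flt3, a growth factor receptor of dendritic cell precursors, had log2 changes of 0.59 ± 0.46 in females and 0.09 ± 0.48 in males. Cd209a, a C-type lectin, had at most 8 counts in any library.

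Ccr7, the chemokine receptor that guides dendritic cells and naive T cells to lymph nodes, lay below the filter (ENSMUSG00000037944, chr11:99144196-99155077, minus strand). Female cKO libraries held 0, 0, 0, 0, 2 and 2 counts, against 10, 2, 36, 4, 32 and 22 in female wildtype. The groups overlapped at 2 counts. A 2-sided exact permutation test on CPM gave p = 0.00649, or 0.182 after Benjamini-Hochberg adjustment over the 28 such tests on the 14 markers below the filter. The smallest p that 6 against 6 libraries allow is 0.00216. With no filter, edgeR gave Ccr7 a log2 change of -4.32 ± 1.04 (adjusted p = 0.0095). In males, Ccr7 had 8 counts in all 6 cKO libraries and 16 in all 6 wildtype libraries (exact permutation p = 0.383).

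Of 14 further dendritic cell genes, 9 were tested, and 2 were higher and 2 lower in female cKO, beside 3.32% and 4.41% of all genes. Ccl22, a chemokine of mature dendritic cells, had 18.5 to 22.3 CPM in female cKO and 1.97 to 9.22 CPM in female wildtype (log2 change 2.04 ± 0.31, adjusted p = 6.25e-05). Xcr1, a chemokine receptor of the same cross-presenting cells as Clec9a, had 0 to 0.184 CPM in female cKO and 0.475 to 2.01 CPM in female wildtype (-3.67 ± 0.59, adjusted p = 0.000116). Batf3, a transcription factor these cells need, was lower (-0.81, adjusted p = 0.0129), and Tbc1d4 was higher (0.48, adjusted p = 0.047). Xcr1 passed the low-count filter through groups other than female cKO, among them female wildtype, where it was higher. In males 0 of 9 passed with edgeR, 2 had an unadjusted p under 0.05, and DESeq2 called 1. Among the 10 microglial markers measured beside them, Siglech was higher (1.09) and Tmem119 (-0.77) and Fcrls (-1.17) were lower in female cKO, beside 7.74% of all genes called. In females 7 of the 10 had a log2 change above 0, with a median of 0.42. At an unadjusted p under 0.05, 6 were higher and 2 lower, beside 19.2% of all genes. In males 9 of the 10 microglial markers had a log2 change above 0. The summed level of the 10 microglial markers was 8108 to 11107 CPM in female cKO and 5785 to 10526 CPM in female wildtype. Their part in the dendritic marker values was not tested.

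**Figure D3:**
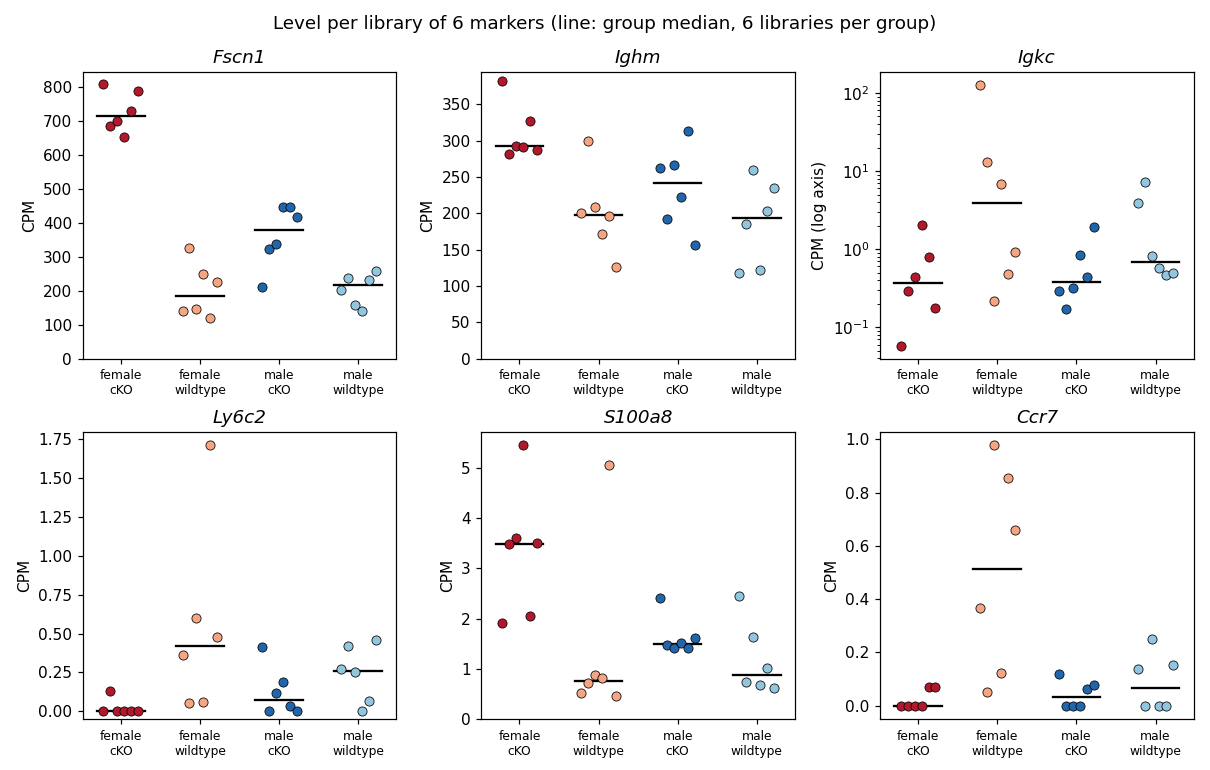
CPM of 6 markers in each library, by group (points: libraries, line: group median; Igkc on a log axis). Fscn1 in female cKO lies wholly above the other groups, female wildtype 1 leads Igkc at 126.8 CPM, and female wildtype 5 is the wildtype point inside the female cKO range of S100a8.

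The 3 tested B cell markers differed in direction and size. Ighm, the constant region of the IgM heavy chain (ENSMUSG00000076617, chr12:113418558-113422730, minus strand), had 282, 292 and 382 CPM in female cKO and 125.7, 198 and 299.6 CPM in female wildtype. Female wildtype 2 was the library that reached into the cKO range. The log2 change was 0.63 ± 0.20, close to the threshold (adjusted p = 0.0481). The call was lost in 17 of 24 omissions of 1 library, with log2 changes of 0.53 to 0.78 and adjusted p of 0.00975 to 0.12 over all 24. It held without female wildtype 2, without male cKO 5 or 6, and without male wildtype 1, 3, 4 or 6, and was lost without any other library. Male cKO libraries had 156, 242 and 314 CPM and male wildtype libraries 118, 194 and 259.6 CPM, which overlapped (0.33 ± 0.20, adjusted p = 1). Averaged over the sexes, the change was 0.48 ± 0.14 (adjusted p = 0.0334), and that call was lost in 8 of 24 omissions (adjusted p of 0.00805 to 0.0703) and with the title number as a random effect (0.284). The 8 were female cKO 1 and 5, female wildtype 4 and 6, male cKO 3 and 5, and male wildtype 1 and 4. Cd79b, a signalling chain of the B cell receptor, had 8.40, 9.21 and 11.7 CPM in female cKO and 6.53, 8.40 and 10.8 CPM in female wildtype, and did not pass (0.20 ± 0.17, adjusted p = 0.597). Male cKO had 5.83, 6.78 and 8.02 CPM of Cd79b and male wildtype 4.68, 5.93 and 9.52 CPM (0.08 ± 0.17, adjusted p = 1).

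Igkc, the constant region of the kappa light chain (ENSMUSG00000076609, chr6:70726435-70726966, plus strand), went the other way. It had 0.058, 0.371 and 2.05 CPM in female cKO and 0.217, 3.87 and 126.8 CPM in female wildtype, with a log2 change of -5.26 ± 1.21 (adjusted p = 0.00555). The groups overlapped, and female wildtype 1 alone held 3470 of the 4243 Igkc counts of its group. Without that library the change was -2.74 and did not pass (adjusted p = 0.0765), nor did it with limma quality weights (-3.13, adjusted p = 0.209) or libraries 4 to 6 alone (-1.42, adjusted p = 0.417). Without the 4 libraries that stood apart it was -6.13 (adjusted p = 0.000525). Female wildtype 1 is not among those 4. In males, Igkc had 0.169, 0.377 and 1.91 CPM in cKO and 0.470, 0.694 and 7.32 CPM in wildtype (-1.84 ± 1.15, adjusted p = 1). Ighm counts were 6573 times the Igkc counts in female cKO 1 and 1.58 times in female wildtype 1, the extremes over the 24 libraries.

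The remaining B lineage markers lay below the filter. Cd79a, the partner of Cd79b, had 24 counts over all 24 libraries, and Ms4a1, which encodes CD20, had 20. Jchain, the joining chain of secreted IgM and IgA, had 8 counts over female cKO and 322 over female wildtype, of which 170 (6.21 CPM) were in library 1 and 138 (3.64 CPM) in library 2 (exact permutation p = 0.106). edgeR called Jchain in females with no filter (-5.23, adjusted p = 0.0159), with libraries 1 to 3 alone (-7.12, adjusted p = 0.0359) and without the 4 libraries that stood apart (-5.57, adjusted p = 0.00614). Mzb1, a chaperone of antibody-secreting cells, had 3 counts in female cKO and 16 in female wildtype (exact permutation p = 0.0671), and 695 bases of its exons are shared on the same strand with SPATA24, so its counts are uncertain. In males, Jchain had 34 counts in cKO and 52 in wildtype, and Mzb1 had 4 and 3. Of 14 further B cell genes, 12 were found in the table and 4 were tested. With edgeR 0 passed in either sex, with 1 unadjusted p under 0.05 in each, while DESeq2 and limma with quality weights each called 1 in females and 0 in males.

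**Figure D4:**
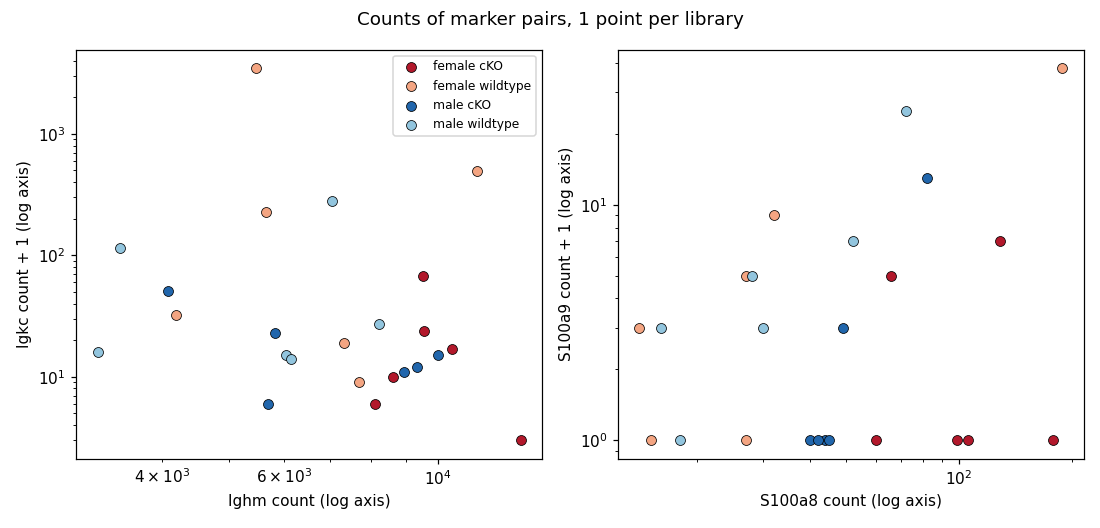
Counts per library of Ighm against Igkc (left) and of S100a8 against S100a9 (right), log axes with 1 added to the vertical count, coloured by group. Igkc varies from 2 to 3470 counts while Ighm varies from 3235 to 13146, and several libraries with S100a8 counts have no S100a9.

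Among monocyte markers, Ly6c2 was lower in female cKO. Ly6c2 encodes a Ly6C antigen of inflammatory monocytes (ENSMUSG00000022584, chr15:75108158-75111970, minus strand). Female cKO libraries held 0, 4, 0, 0, 0 and 0 counts, against 10, 2, 22, 2, 64 and 16 in female wildtype. The groups overlapped at cKO library 2. The log2 change was -4.46 ± 1.08 (adjusted p = 0.00814), and it passed in each of 24 omissions of 1 library (-7.13 to -3.65). Without the 4 libraries that stood apart it was -3.60 and did not pass (adjusted p = 0.0849), nor did it pass with libraries 1 to 3 (-2.94, adjusted p = 0.295) or 4 to 6 (-7.51, adjusted p = 0.0599) alone. Ly6c2 fell below the filter, and so was not tested, at 1 CPM in 6 libraries, with counts divided by 2 and with the compared groups fitted alone. It reached 10 counts in 7 libraries, none of them female cKO. The female wildtype libraries with 10, 22, 64 and 16 counts were among the 7. Ly6c2 thus entered the female test in part through the compared group where it was higher, which the omission runs do not remove. In males, Ly6c2 had 0, 0.073 and 0.411 CPM in cKO and 0, 0.262 and 0.459 CPM in wildtype (-0.93 ± 0.89, adjusted p = 1). Its near-identical neighbour Ly6c1, made by endothelial cells as well, had 10 to 42 counts in female cKO and 8 to 85 in female wildtype. How reads that fit both were counted is not given in the sources used here, so the split between them is uncertain. Of 5 endothelial markers, 1 was higher and 1 lower in female cKO, beside 3.32% and 4.41% of all genes. Of 5 neuron, 5 astrocyte, 5 oligodendrocyte, 5 fibroblast and 1 tested erythroid marker, 0 passed with edgeR. Among these, only the erythroid one had an unadjusted p under 0.05, and limma with quality weights called it.

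With edgeR and all libraries, the other 4 tested monocyte markers did not pass. Vim, the intermediate filament vimentin, had 205.5, 242 and 277 CPM in female cKO and 162, 213.5 and 264 CPM in female wildtype (0.21 ± 0.12, adjusted p = 0.376). In males, Vim had 190.0, 215 and 289.7 CPM in cKO and 207, 244 and 276 CPM in wildtype (-0.13 ± 0.12, adjusted p = 1). The groups overlapped in both sexes. Arg1, an arginine-degrading enzyme of alternatively activated macrophages, had 0, 0.379 and 0.722 CPM in female cKO and 0.146, 1.85 and 10.6 CPM in female wildtype. The 3 highest female wildtype libraries, 5, 3 and 6, lay above every cKO library, and the log2 change was -3.31 ± 1.21 (adjusted p = 0.103). In males, Arg1 had 0, 0.194 and 16.2 CPM in cKO and 0.336, 0.506 and 4.98 CPM in wildtype. Male cKO 1 held 550 of 580 counts of its group. The log2 change in males was 1.07 ± 1.09 with that library and -2.79 (adjusted p = 0.679) without it. Leaving out male cKO 1 also brought the female Arg1 change past the threshold (-3.31, adjusted p = 0.018), since all 4 groups share 1 estimate of the spread, and it also passed with the female groups fitted alone (adjusted p = 0.0387) or with libraries 4 to 6 alone (adjusted p = 0.0395).

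S100a4 and Plac8 had log2 changes below 0 in both sexes that missed the threshold with edgeR. S100a4, a calcium-binding protein of migrating cells, shares 302 exonic bases with Gm42674 on the same strand, so its counts are uncertain. It had 0.343, 0.730 and 1.59 CPM in female cKO and 0.547, 1.60 and 2.55 CPM in female wildtype (-1.06 ± 0.37, adjusted p = 0.0834). It passed without female cKO 4 (-1.41, adjusted p = 0.0182) and without female wildtype 4 (-1.23, adjusted p = 0.0301), with DESeq2 (-1.06, adjusted p = 0.0483) and with libraries 1 to 3 alone (-1.61, adjusted p = 0.0476). Plac8, a gene of blood monocytes, had 0.451 CPM at the median of female cKO and 1.18 CPM in female wildtype (-0.97 ± 0.48, adjusted p = 0.268). In males its medians were 0.553 CPM in cKO and 1.16 CPM in wildtype. The male change was -1.18 ± 0.48 (edgeR adjusted p = 0.8), with an unadjusted p under 0.05. For the mean of the sexes, the Plac8 change was -1.08 ± 0.34 (edgeR adjusted p = 0.0552), and it passed with DESeq2 (0.0213), limma quality weights (0.0441), a filter of 1 CPM in 6 libraries (0.0492), counts divided by 2 (0.0476) and the term for libraries 1 to 3 against 4 to 6 (0.046). Chil3, a chitinase-like protein of activated macrophages, had 0 counts in all 6 female cKO libraries and 54 in female wildtype, 44 of them in library 5. A count of 0 allows up to 0.0902 to 0.105 CPM in these cKO libraries. The exact permutation p was 0.0152, or 0.213 after adjustment over the 28 tests. In males, Chil3 had 10 counts in cKO and 60 in wildtype, 42 of them in library 1 (exact permutation p = 0.195). With no filter, edgeR called Chil3 in females (adjusted p = 0.0393) and for the mean of the sexes (adjusted p = 0.0151).

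Of 14 further monocyte genes, 11 were tested, and 1 was higher and 3 were lower in female cKO, beside 3.32% and 4.41% of all genes. The lower ones were Tgfbi (-1.79, adjusted p = 0.00325), Thbs1 (-1.07, adjusted p = 0.00205) and F10 (-4.28, adjusted p = 0.0158). Fn1, which encodes fibronectin, was higher (1.18, adjusted p = 0.00718). In males 0 of 11 passed with edgeR, with 1 higher and 1 lower at an unadjusted p under 0.05. Of 8 markers of border-associated macrophages, 5 were tested and F13a1 was lower in female cKO (-2.16, adjusted p = 0.0117), beside 4.41% of all genes. The summed level of the 8 markers was 6.24 to 9.84 CPM in female cKO and 8.69 to 20.7 CPM in female wildtype, with female wildtype 5 highest. That library also had the lowest summed level of microglial markers in its group, 5785 CPM, and its part in the monocyte values was tested only by leaving it out.

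Neutrophil markers were led by S100a8, a subunit of calprotectin (ENSMUSG00000056054, chr3:90668978-90670035, plus strand). It had 1.92, 3.49 and 5.46 CPM in female cKO and 0.450, 0.766 and 5.06 CPM in female wildtype. Female wildtype 5, at 5.06 CPM, lay inside the cKO range, and the other 5 wildtype libraries, at 0.870 CPM or less, lay below every cKO library. The log2 change was 1.24 ± 0.47 with all libraries and did not pass (adjusted p = 0.116). It was 2.30 ± 0.35 and passed (adjusted p = 5.16e-05) without female wildtype 5, and 2.48 (adjusted p = 0.000823) without the 4 libraries that stood apart. It also passed with limma quality weights (2.32, adjusted p = 7.25e-05), with libraries 1 to 3 alone (2.09, adjusted p = 0.0176) and in the fit with title numbers (1.70, adjusted p = 0.0282). In males, S100a8 had 1.41, 1.5 and 2.41 CPM in cKO and 0.612, 0.872 and 2.44 CPM in wildtype, which overlapped (0.46 ± 0.48, adjusted p = 1). Mmp8, neutrophil collagenase, had 0.722, 1.44 and 1.91 CPM in female cKO and 0.535, 0.955 and 1.62 CPM in female wildtype (0.49 ± 0.33, adjusted p = 0.456). Male cKO had 0.376, 1.01 and 1.42 CPM of Mmp8 and male wildtype 0.567, 0.959 and 1.76 CPM (-0.15 ± 0.33, adjusted p = 1).

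S100a9, the partner subunit of calprotectin, had counts in 13 of 24 libraries and reached 10 counts in 3, while S100a8 reached 10 in all 24. The 6 female cKO libraries held 60 to 178 counts of S100a8 and 0 to 6 of S100a9. Female wildtype 5 held 189 counts of S100a8 and 37 of S100a9, male cKO 1 held 82 and 12, and male wildtype 1 held 72 and 24. These 3 libraries were the highest of their group for both genes. S100a9 totalled 10 counts in female cKO and 51 in female wildtype (exact permutation p = 0.229), and 14 counts in male cKO and 38 in male wildtype (exact permutation p = 0.392). The granule genes Camp and Ngp had at most 20 counts in any library, with the highest counts of both in male wildtype 1.

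The start regions of S100a8 (chr3:90668821-90669120, plus strand) and S100a9 (chr3:90695672-90695971, minus strand), from the same RefSeq table and with the same capitals, are shown because the proteins are partners and the S100a8 difference turned on 1 library.
S100a8: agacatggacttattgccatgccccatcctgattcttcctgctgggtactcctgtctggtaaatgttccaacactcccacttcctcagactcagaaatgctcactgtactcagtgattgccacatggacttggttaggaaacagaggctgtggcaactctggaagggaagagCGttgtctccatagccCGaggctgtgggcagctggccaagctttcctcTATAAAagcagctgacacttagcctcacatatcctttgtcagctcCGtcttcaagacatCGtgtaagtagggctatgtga
S100a9: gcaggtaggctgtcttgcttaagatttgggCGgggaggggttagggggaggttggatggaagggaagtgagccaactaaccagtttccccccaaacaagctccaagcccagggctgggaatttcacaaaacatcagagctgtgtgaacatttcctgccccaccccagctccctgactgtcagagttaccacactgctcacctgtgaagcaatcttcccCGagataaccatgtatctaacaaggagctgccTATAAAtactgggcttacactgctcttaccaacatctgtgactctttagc
They hold 4 and 2 CG pairs, with fewer in 31.4% and 14.1% of promoters, and TATAAA once each.

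Of 14 further neutrophil genes, 6 were tested and Lcn2, an iron-binding protein of neutrophil granules and reactive glia, was lower in female cKO, beside 4.41% of all genes. Lcn2 had 0.232 to 0.736 CPM in female cKO and 0.316 to 24.1 CPM in female wildtype (-3.64 ± 0.76, adjusted p = 0.0022). In males 0 of 6 passed, and 0 had an unadjusted p under 0.05 with edgeR.

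With edgeR, 0 of the 8 tested T cell markers passed in either sex, with 2 in females and 1 in males at an unadjusted p under 0.05, while DESeq2 called 1 in females, Cd4, and 0 in males, and limma with quality weights called 0 in both. Cd5, a receptor on T cells, had 1.41, 2.06 and 3.43 CPM in female cKO and 1.23, 2.34 and 3.59 CPM in female wildtype (-0.04 ± 0.27, adjusted p = 0.956). In males it had 1.12, 2.60 and 3.47 CPM in cKO and 1.82, 2.67 and 3.62 CPM in wildtype (-0.17 ± 0.27, adjusted p = 1). Lck, the kinase that starts T cell receptor signalling, had 0.464, 1.14 and 1.84 CPM in female cKO and 0.474, 1.10 and 2.30 CPM in female wildtype (-0.06 ± 0.35, adjusted p = 0.955). Male cKO had 0.876, 1.40 and 2.10 CPM of Lck and male wildtype 0.941, 1.54 and 2.26 CPM (-0.03 ± 0.35, adjusted p = 1). All 4 pairs of groups overlapped. Fewer cells of a type and less RNA per cell cannot be told apart in these bulk libraries.

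The 8 tested T cell markers had log2 changes between -1.57 ± 0.79 (Cd2, an adhesion molecule) and 0.77 ± 0.75 (Cd8a, a coreceptor of cytotoxic T cells) in females. In males they lay between -0.74 ± 0.59 (Cd3e, a CD3 chain) and 2.11 ± 0.85 (Cd8a). Cd4, the coreceptor of helper T cells, had 0.197, 0.410 and 0.754 CPM in female cKO and 0.421, 1.20 and 2.78 CPM in female wildtype. The groups overlapped, and the log2 change of -1.45 ± 0.47 did not pass (adjusted p = 0.0605). It passed without female wildtype 1 (-1.62, adjusted p = 0.0334) or female wildtype 2 (-1.63, adjusted p = 0.0249), and with DESeq2 (-1.47, adjusted p = 0.026). For the mean of the sexes, Cd4 had a change of -1.04 ± 0.33 (edgeR adjusted p = 0.0601), with an adjusted p of 0.0244 by DESeq2 and of 0.0429 in edgeR with a term for libraries 1 to 3 against 4 to 6. In males the Cd4 change was -0.64 ± 0.47. Cd8a had 2 to 31 counts in male cKO and 0 to 4 in male wildtype, with an unadjusted edgeR p of 0.0199 and an adjusted p of 0.799. Icos, a costimulator of activated T cells, had 0.778 CPM at the median of female cKO and 0.504 CPM in female wildtype (0.76 ± 0.36, adjusted p = 0.245). Trac and Cd3d, chains of the T cell receptor complex, lay below the filter with 151 and 92 counts over all 24 libraries.

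Marker transcripts, counted over all classes, were unevenly spread over libraries of the same group. The same count was not made over all genes, so the spread is not shown to be particular to these markers. Among markers with at least 10 counts summed over a group, female cKO 6 was the highest of its group for 9 of 25, 7 of them T cell genes. Male cKO 5 was the highest of its group for 9 of 28, female wildtype 5 for 13 of 30, and male wildtype 1 and 3 for 11 and 10 of 30. The T cell genes among these were Cd3d, Cd3e, Cd4, Cd8a, Lck and Icos in male cKO 5. They were Cd3d, Cd3e, Cd4, Cd2, Lck and Trac in female wildtype 5, Cd4 and Cd2 in male wildtype 1, and Cd3g, Cd5 and Trac in male wildtype 3. Of 18 further T cell genes, 6 were tested, and Il7r, the receptor for interleukin 7, was lower in female cKO (-1.80 ± 0.45, adjusted p = 0.0099). It had 0.123 to 0.580 CPM in female cKO and 0.608 to 4.0 CPM in female wildtype. Among 11 genes of natural killer and cytotoxic cells, 2 were tested, and 1 of them, Klrb1c, the NK1.1 antigen, was lower in female cKO. Klrb1c had 0.0707 to 0.429 CPM in female cKO and 0.963 to 2.24 CPM in female wildtype (-2.59 ± 0.39, adjusted p = 4.83e-05). The female wildtype libraries, where Il7r and Klrb1c were higher, were alone enough to take both past the low-count filter. Over all genes, 4.41% were called lower in female cKO. In males 0 of 6 and 0 of 2 passed with edgeR, with 1 lower in each list at an unadjusted p under 0.05.

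Scores per library, the mean of log2(CPM + 1) over all members of a class, gave the classes as wholes, and no test was made on them. For T cell markers the score was 0.403, 0.492 and 0.864 in female cKO and 0.426, 0.635 and 0.956 in female wildtype. In males it was 0.511, 0.565 and 0.857 in cKO and 0.552, 0.643 and 0.762 in wildtype. The B cell score was 1.71, 1.74 and 1.93 in female cKO and 1.55, 1.88 and 3.03 in female wildtype, where library 1 was highest. Male cKO had B cell scores of 1.54, 1.70 and 1.77, and male wildtype 1.5, 1.73 and 2.02. T and B cell scores thus overlapped between cKO and wildtype in both sexes.

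The neutrophil score was 0.421, 0.502 and 0.555 in female cKO and 0.240, 0.290 and 0.632 in female wildtype, and wildtype library 5 was the one above the lowest cKO library. In males it was 0.247, 0.358 and 0.457 in cKO and 0.222, 0.318 and 0.754 in wildtype. The monocyte score was 1.42, 1.66 and 1.81 in female cKO and 1.66, 1.95 and 2.86 in female wildtype. In males it was 1.45, 1.61 and 2.34 in cKO, with library 1 highest, and 1.65, 1.84 and 2.29 in wildtype. The dendritic score was 2.22, 2.35 and 2.44 in female cKO and 1.84, 1.92 and 2.21 in female wildtype. Among the classes of listed members, the dendritic class was the only one whose female groups did not overlap. The margin was female cKO 4 at 2.22 over female wildtype 2 at 2.21. That class contains Fscn1, and when each library's score was taken as the median of its members it was 0.649 to 1.32 in female cKO and 0.240 to 0.952 in female wildtype, which overlapped. With an offset of 0.5 CPM in place of 1, the groups also overlapped, at 1.68 in female cKO 4 and 1.73 in female wildtype 2. In males the dendritic score was 1.87, 2.09 and 2.17 in cKO and 1.90, 1.92 and 1.96 in wildtype. Lists of further genes, scored the same way, also held female groups that did not overlap, with cKO lower. Natural killer and cytotoxic genes scored 0.0843 to 0.142 in female cKO and 0.177 to 0.346 in female wildtype. Further B cell genes scored 0.821 to 0.907 and 0.910 to 1.03, and overlapped with an offset of 0.5 CPM.

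**Figure D5:**
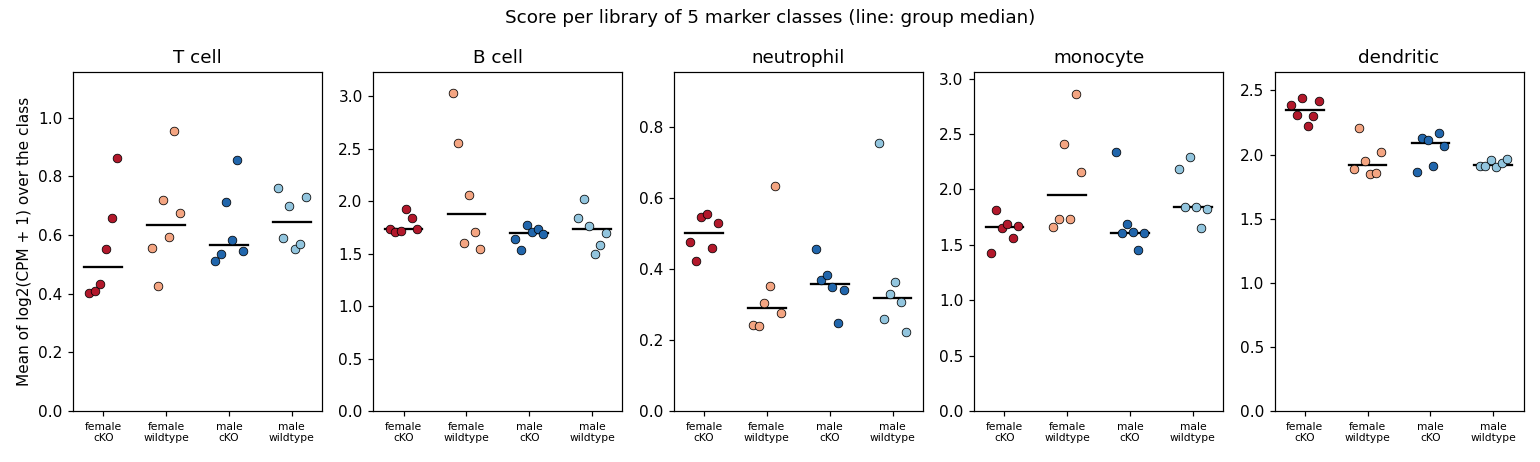
Score of each marker class (mean of log2(CPM + 1) over its members) in each library, by group (points: libraries, line: group median). Female cKO lies above female wildtype for the dendritic class by a small margin, single libraries lead the other classes, and female wildtype 5 is highest of its group for the T cell, neutrophil and monocyte classes.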

How the data were processed

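RNA sequencing counts were analysed for 24 spinal cord microglia libraries, 6 in each of 4 groups, which were taken from the sample labels. The values are whole-number counts per gene as deposited by the authors, not normalised. Per the labels' protocols, RNA was extracted with Direct-zol kits and made into stranded, mRNA-enriched KAPA libraries. The submitters' processing notes name Trimmomatic, FastQC, bcl2fastq 2.17 and mouse build mm10. For the aligner and the counting program, nothing is given in the sources used here. Of 39017 gene identifiers, 37607 were matched to symbols. Library totals ran from 27110133 to 40554736 counts.

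Counts were tested with edgeR 4.0.16 (R 4.3.3): genes were filtered with filterByExpr, scaled by TMM, and fitted by the quasi-likelihood method with all 4 groups in 1 model and no covariate. P-values were adjusted by Benjamini-Hochberg over all 16535 genes tested, with a threshold of 0.05. Each standard error was the log2 change divided by the square root of the quasi-likelihood F. CPM used the TMM-scaled totals. The 14 markers below the filter were compared by 2-sided exact permutation tests. Low-count limits were 3 counts and cover counting error only. Alternatives were DESeq2 1.42.0, limma 3.58.1 with quality weights or with the number in the titles as a random effect (consensus correlation 0.216), other filters and scalings, libraries 1 to 3 or 4 to 6 of each group alone or as a term, and each library left out. On simulated female comparisons of 16535 genes, edgeR recovered 28% of 50 genes changed 1.5-fold, 74% at 2-fold and 96% at 3-fold and at 4-fold, with 3 false calls among 150. No gene averaging under 1 CPM was among the changed ones. The rates therefore do not cover Plac8, Clec9a, Cd4, Icos, Cd2, Cd3e, Flt3, Ly6c2, Cd3g and Cd8a, tested markers whose mean lay under 1 CPM.

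The members and lists were chosen with earlier results of these data known. Values by group are given for every called marker and for the 2 markers of each class with the highest mean CPM, and further lists name up to 4 called genes by smallest p. Cd4, Cd8a, Icos, Cd2, Clec9a, S100a4, Plac8, Ccr7, Chil3, Jchain, Mzb1 and S100a9 were described at length after their values were seen.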

Additional observations from a re-analysis of the deposited data

Results flagged for a closer look

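Single libraries stood far from the other 5 of their group in 12 of 68 groups of values examined by Dixon's criterion for 6 values (0.625). Normally distributed values meet it in about 1 group in 20. The values here were scores and untransformed CPM, some from few counts, so that rate does not apply to them. Whether 12 of 68 is more than chance gives was not tested. For Igkc, these were female cKO 4 at 2.05 CPM and female wildtype 1 at 126.8 CPM. For S100a8, they were male cKO 1 at 2.41 CPM and female wildtype 5 at 5.06 CPM. For Ly6c2, they were female cKO 2 at 0.131 CPM, from 4 counts beside 0 in the rest of its group, and female wildtype 5 at 1.71 CPM. For Arg1, they were male cKO 1 at 16.2 CPM and male wildtype 3 at 4.98 CPM. Zbtb46 had 7.51 CPM in male wildtype 4. The neutrophil score was 0.63 in female wildtype 5 and 0.75 in male wildtype 1, and the monocyte score was 2.34 in male cKO 1. Female wildtype 5 was the library concerned in 3 of these 12 cases and male cKO 1 also in 3.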

How the results depend on the processing

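The female Fscn1 call held in every setting and every omission run. Of 536 log2 changes of single markers in other settings, 468 kept direction and side of the threshold, 21 lost a call, 19 gained one and 28 changed sign, and the cause was not tested. With libraries 4 to 6 alone, these were Cd3g 0.70, Cd5 0.11, Igkc 1.03, Arg1 -3.32 and Clec9a -0.18 in males, and Cd5 0.46 and Lck 0.0507 in females. With libraries 1 to 3 alone they were Cd2 0.31, Lck 0.0057, Icos -0.17, Cd79b -0.0664, Mmp8 0.17 and Flt3 -0.43 in males, and Cd79b -0.0194 and Zbtb46 -0.17 in females. With quality weights they were Cd8a -0.44 and Lck 0.0049 in females, and Lck 0.13 and Arg1 -1.54 in males. With the title number they were Cd8a -0.21 and Cd5 0.0144 in females, and Cd2 0.25, Lck 0.27 and Arg1 -1.13 in males. Without the 4 libraries that stood apart they were Cd2 0.12 and Zbtb46 -0.0053 in females and Lck 0.0328 in males, and with a term for libraries 1 to 3 against 4 to 6 Cd2 0.024 in males.

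With 1 library left out, the male changes ranged from -2.79 to 2.18 for Arg1, -0.48 to 0.30 for Cd2, -0.14 to 0.44 for Flt3, -0.16 to 0.11 for Lck and -0.29 to 0.0526 for Mmp8. The female changes ranged from -0.20 to 0.12 for Cd5, -0.16 to 1.07 for Cd8a, -0.23 to 0.22 for Lck and -0.0719 to 0.19 for Zbtb46. Genes called ranged from 15 to 63 in males and from 43 to 87 for the difference between the sexes. Markers called ranged from 0 to 1 in males, from 3 to 7 for the mean of the sexes and from 0 to 1 for the difference between them.

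Genes called in females numbered 1279, against 458 with libraries 1 to 3, 658 with libraries 4 to 6 and 803 with the title number, and markers called numbered 4, against 2 with libraries 4 to 6, 2 with the title number and 7 with DESeq2. In males, genes called numbered 31, against 0 with libraries 1 to 3, 0 with libraries 4 to 6, 48 without the 4 libraries, 79 with DESeq2, 90 with quality weights and 2 with the title number. Markers called in males numbered 1 without the 4 libraries, 1 with DESeq2 and 1 with quality weights. For the mean of the sexes, genes called numbered 1082, against 463 with libraries 1 to 3, 546 with libraries 4 to 6 and 330 with the title number, and markers 4, against 2 with libraries 4 to 6 and 1 with the title number. For the difference between the sexes, genes called numbered 68, against 111 with the term, 15 with libraries 1 to 3, 4 with libraries 4 to 6, 142 with DESeq2 and 104 with the title number, and quality weights called 1 marker. The median number of markers detected was 26.5, or 18.5 at 10 counts. The cKO minus wildtype score in females was 0.21 for neutrophil and 0.43 for dendritic markers, against -0.0188 and 0.17 with the median over members. No title number occurs in both genotypes, so cKO and wildtype could not be paired. Within each of female cKO, male cKO and male wildtype, libraries 1 to 3 share a title number. Fits on libraries 1 to 3 or 4 to 6, and the term between them, therefore follow the title number in part. Between female and male cKO, an alternative chosen after seeing the data used the title number as a replicate block: Fscn1 differed by 0.99, against 1.0 in the same fit with no replicate block and 1.03 with a random effect, and was called in all 3, while genes called numbered 551, 515 and 411. Many markers held few counts, which limits what these libraries can show.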

Other observations

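Other immunoglobulin genes, chosen after their values were seen and not tested, included several with most of their counts in 1 library. Female wildtype 1 held 3470 counts of Igkc, 2499 of Ighg1, which encodes an IgG heavy chain, and 799 of Ighg2c. It also held 798 counts of the variable gene Igkv4-63, out of 809 counts over the 214 variable genes listed. Female wildtype 2 held 531 counts of Igha, the IgA heavy chain, and 120 counts of Igkv6-17, out of 144 variable-gene counts. In both libraries 1 variable gene thus held most of the variable-gene counts, whereas female wildtype 4 spread 72 such counts over 22 genes, with 10 at most in any. Female wildtype 1 and 2 carry the same title number, which no other library has. Among cKO libraries, male cKO 3 held 144 counts of Iglc2, a lambda light chain, of 184 over all libraries, and 69 of Igha. Ighg2b was spread over all 24 libraries, with 63 counts at most in any, and Ighg3 over 13, with 10 at most. Igkv4-63 and Igkv6-17 each had counts in 1 library of the 24.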
